A study of Mus musculus with 24 samples.

Results

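Skeletal muscle genes were followed in subcutaneous white adipose tissue (sWAT), a fat depot in which sarcomere genes are not expected from adipocytes. The group was given as 38 gene symbols, and all 38 were present among the 19175 genes of the count table. They comprised 9 thick filament genes (Myh1, Myh2, Myh4, Myh7, Myl1, Mylpf, Mylk4, Mybpc1 and Mybpc2), 8 thin filament genes (Acta1, Tnni1, Tnni2, Tnnt1, Tnnt3, Tnnc1, Tnnc2 and Neb) and 10 genes of the Z-disc and scaffold (Actn2, Actn3, Myoz1, Xirp2, Tcap, Ttn, Des, Myo18b, Trim54 and Trim63). The others were 5 genes of calcium handling (Atp2a1, Ryr1, Casq1, Cacna1s and Pvalb), 4 of energy supply (Ckm, Mb, Pygm and Eno3) and the fiber's translation factor Eef1a2 and transcription factor Myf6. RNA-Seq had been done on sWAT of 24 mice aged 20 weeks, with 6 WT and 6 Gdf15-KO animals of each sex. All were on a mixed C57BL/6/129/SvJ background, ate standard chow ad libitum and were killed in the fed state. The knockout removes Gdf15 from the whole body, and WT mice were littermates. Each library held between 22521358 and 24500575 counts, and Gdf15 had 3 counts in all female and 4 in all male Gdf15-KO mice against 73 and 135 in WT mice.

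In a muscle fiber, calcium released from the sarcoplasmic reticulum binds the troponin complex on the actin thin filament, which lets myosin of the thick filament pull on it. Fibers are typed by their myosin heavy chain, with Myh7 in slow oxidative fibers, Myh2 in IIA, Myh1 in IIX and Myh4 in IIB fibers, the fastest and most glycolytic kind in the mouse. In mice, subcutaneous fat lies close to muscle of the skin and the body wall. Which muscle the RNA came from was not tested, and in bulk tissue more fibers and more RNA per fiber cannot be told apart.

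The promoters of Acta1, Ckm and Myh4 are shown because these genes are among those with the most muscle counts and move together from mouse to mouse. Each is given 5′ to 3′ for the 250 bases before the transcription start, from RefSeq on GRCm38.p6. They lie at chr8:123894776-123895025 on the minus strand (Acta1), chr7:19410844-19411093 on the plus strand (Ckm) and chr11:67237562-67237811 on the plus strand (Myh4). Capitals mark the E-box CAGCTG, the sequence TATAAA, the MEF2 consensus and the CArG box, each searched on both strands.
Acta1: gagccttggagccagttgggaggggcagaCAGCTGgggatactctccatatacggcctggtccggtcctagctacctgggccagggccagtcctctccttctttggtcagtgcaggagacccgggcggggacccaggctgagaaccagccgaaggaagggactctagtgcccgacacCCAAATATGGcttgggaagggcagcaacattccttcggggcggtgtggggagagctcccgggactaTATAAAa
Ckm: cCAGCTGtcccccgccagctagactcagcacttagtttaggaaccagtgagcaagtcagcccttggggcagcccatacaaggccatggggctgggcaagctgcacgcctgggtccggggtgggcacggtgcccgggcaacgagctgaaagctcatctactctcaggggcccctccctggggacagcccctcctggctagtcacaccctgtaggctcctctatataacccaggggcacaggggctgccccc
Myh4: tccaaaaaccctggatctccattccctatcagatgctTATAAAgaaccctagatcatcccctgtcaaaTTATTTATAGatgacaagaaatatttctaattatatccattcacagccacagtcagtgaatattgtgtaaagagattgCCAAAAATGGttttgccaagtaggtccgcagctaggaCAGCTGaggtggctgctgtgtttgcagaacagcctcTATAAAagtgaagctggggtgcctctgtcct
The MEF2 match in Myh4, 182 to 173 bases before the start, overlaps 1 of its 3 TATAAA matches. Of the 38 genes, 30 had a promoter entry, with 35 promoters in all. CAGCTG, which is read by myogenic factors, was present in 18 of these 35 promoters (51.4%) and in 13% of all 32851 promoters of the same length. The MEF2 consensus was present in 6 member promoters (17.1%) and in 2.92% of all, and the CArG box, read by serum response factor, in 2 (5.71%) and in 1.47% of all. These are letter matches, not measured binding.

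Counts in the muscle genes were present in every sWAT sample, and their amount differed greatly from mouse to mouse. The muscle share, the percentage of a mouse's counts that fell in the 38 genes, ran from 0.0136% (Wilson 95% interval 0.0132% to 0.0141%, counting error only) in female WT replicate 6 to 4.60% in male WT replicate 1, a range of 337.1-fold with a median of 0.911% over the 24 mice. At the low end 1 count in 7330 came from these genes and at the high end 1 in 22. The low end depended on the genes counted. Without Des, Eno3, Ttn and Eef1a2 the share was 0.0061% in female WT replicate 6 and 4.29% in male WT replicate 1. The share was above 1% in 12 mice and below 0.2% in 7, and no mouse lay between 0.108% and 0.458%.

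In female WT mice the share was 1.19%, 1.05%, 1.47%, 0.775%, 2.17% and 0.0136%. In female Gdf15-KO mice it was 1.69%, 0.108%, 1.17%, 1.72%, 0.458% and 0.103%. Each female group thus had mice with much and mice with little muscle RNA, and the groups overlapped. In male WT mice the share was 4.60%, 3.42%, 2.03%, 0.0420%, 0.0827% and 0.471%, and in male Gdf15-KO mice 0.0215%, 0.0672%, 1.70%, 2.26%, 0.552% and 0.770%. The medians were 1.12% and 0.816% in female WT and Gdf15-KO mice and 1.25% and 0.661% in male WT and Gdf15-KO mice, so the WT median was the higher in both sexes within ranges that overlapped. With 1 mouse left out the median ran from 0.471% to 2.03% in male WT and from 0.458% to 1.17% in female Gdf15-KO mice.

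**Figure D1:**
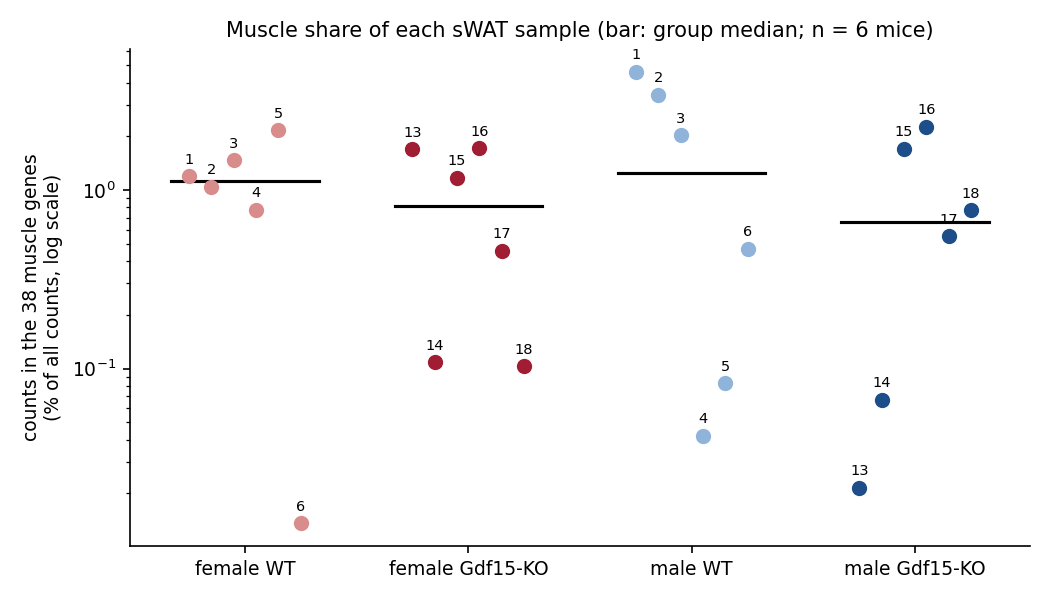
Muscle share of each mouse, the percentage of its counts in the 38 genes, on a log axis, with the replicate number beside each point and the group median as a bar. All 4 groups spread over more than 10-fold and overlap, from 0.0136% in female WT replicate 6 to 4.60% in male WT replicate 1.

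A few genes of the filaments, calcium handling and energy supply gave much of the share. Over all mice Myh4 gave 22.1% of the muscle counts, Atp2a1 (SERCA1, the calcium pump of fast fibers) 14.1%, Acta1 (skeletal α-actin) 13.8% and Ckm (muscle creatine kinase, which buffers ATP) 7.90%. Per kb of coding sequence the order was different. Acta1 led with a median of 1177 CPM per kb (CPM being counts scaled to the library total), followed by Ckm at 551.3 and Pvalb, the calcium buffer of fast fibers, at 508 CPM per kb.

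Acta1 (chromosome 8, 124618501 to 124623661 on GRCm39) had a lowest, median and highest level of 6.58, 1581 and 2920 CPM in female WT and 102.4, 1118 and 2462 CPM in female Gdf15-KO mice. In males it had 88.0, 1653 and 5727 CPM in WT and 25.7, 928.5 and 3236 CPM in Gdf15-KO mice. Ckm (chromosome 7, 19138701 to 19157965) followed in males with 18.03, 1030.0 and 3670 CPM in WT and 6.89, 581 and 1823 CPM in Gdf15-KO mice, and in females with 1.62, 830.0 and 1459 CPM in WT and 53.1, 590.6 and 1311 CPM in Gdf15-KO mice. For both genes the lowest mouse was female WT replicate 6 and the highest male WT replicate 1, and every group overlapped every other. Mylpf, the regulatory light chain of fast myosin, ran from 1.62 to 755 CPM between the same mice. Pvalb ran from 0.385 to 889 CPM, again from female WT replicate 6 to male WT replicate 1. The muscle transcription factor Myf6 was at 0 counts in female WT replicate 6 and reached 11.5 CPM in male WT replicate 1.

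The members moved together. In 28 of 38 genes the log2 level, centred within groups, correlated at r above 0.95 with the log2 summed level of the other 37, centred the same way, over the 24 mice. In a model with a mean for each group, the slope of the 34 genes that passed the filter on low counts on the log2 muscle share ran from 0.35 to 1.21 with a median of 1.05, where 1 means a level in proportion to the share. These values describe how the share is built, since the genes are part of it. The slope was steepest for Myh4 (1.21 ± 0.05, SE) and shallowest for Myh2 (0.35 ± 0.17). It was also shallow for Des, the intermediate filament that other contractile cells also make (0.45), and for Eno3, the muscle enolase (0.56). Actn2 (0.47), Mb (0.57) and Trim63 (0.58) had slopes close to these. Even in female WT replicate 6, Des was at 32.3 CPM and Eno3 at 34.2 CPM, against 3.25 CPM for Myh4. Both genes fell with the rest but less steeply, and were 17.1-fold (Des) and 20.3-fold (Eno3) higher in male WT replicate 1 than in that mouse.

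**Figure D2:**
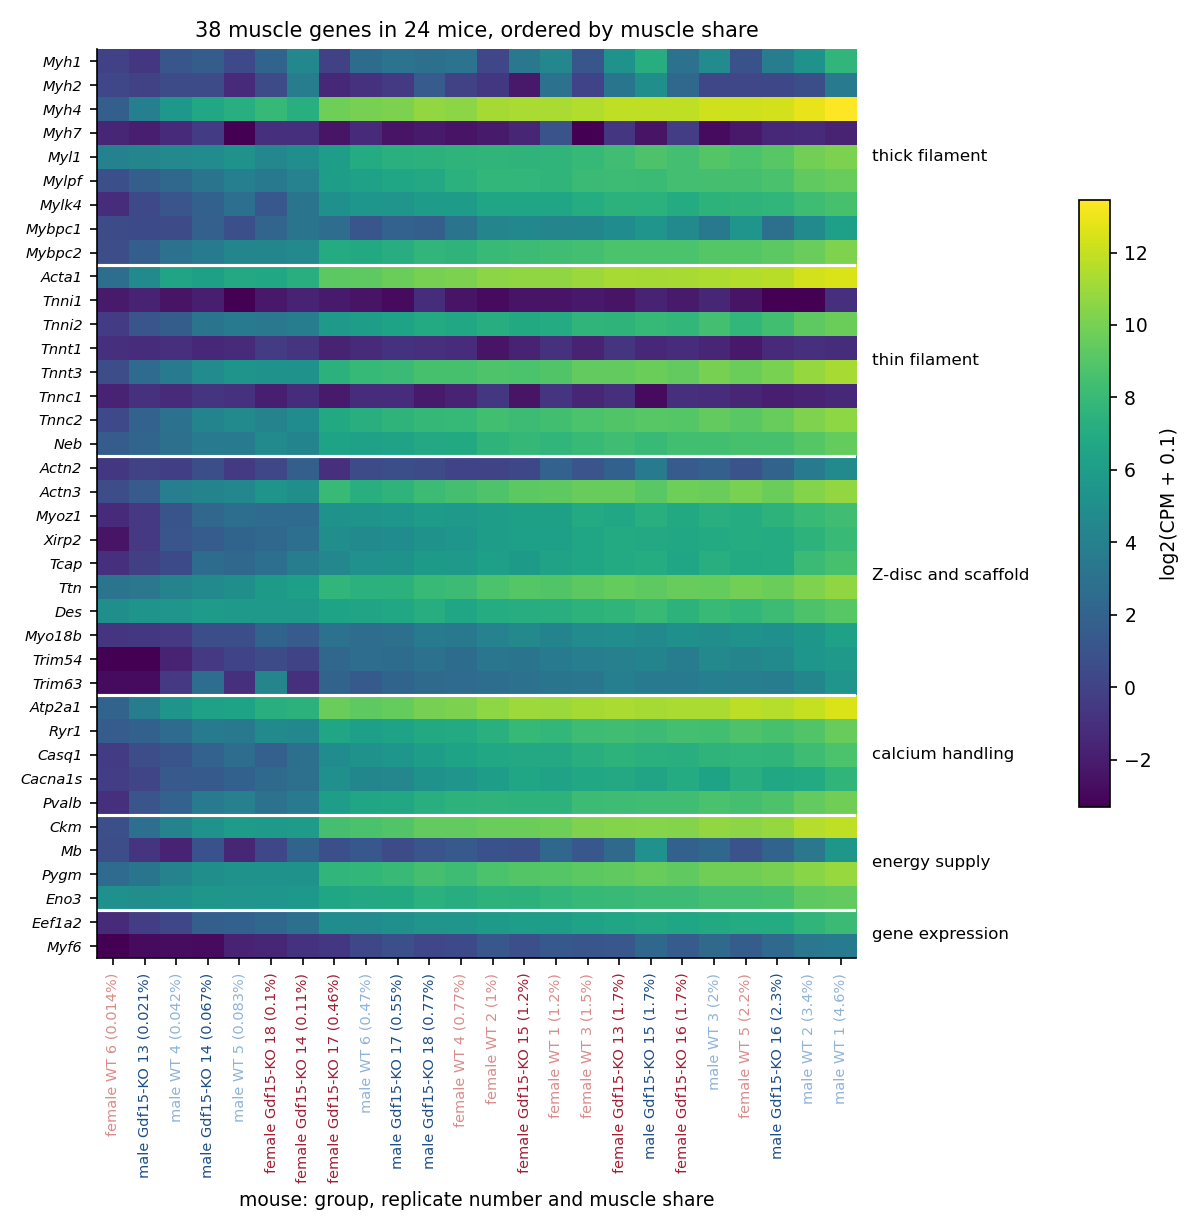
Levels of the 38 genes, as log2(CPM + 0.1), in 24 mice ordered from left to right by muscle share, with genes grouped by role and mice labelled by group, replicate and share. Most rows brighten from left to right together, while Myh7, Tnni1, Tnnt1 and Tnnc1 stay dark in all mice and Des and Eno3 are visible even on the left.

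The muscle RNA was almost all of the fast type. Myh4 made up between 95.4% and 99.9% (median 99.4%) of the 4 adult myosin heavy chains, in counts per kb, in the 17 mice with a muscle share of at least 0.4%. In these mice Myh1 (IIX) took 0.0370% to 3.77%, Myh2 (IIA) 0.0050% to 0.880% and the slow chain Myh7 at most 0.0720%. Over all mice, the group median of the Myh4 percentage was 99.2% in WT males, 97.3% in Gdf15-KO males, 99.6% in WT females and 99.1% in Gdf15-KO females. Myh1, Myh2 and Myh4 are neighbours on chromosome 11 with close sequence, and RSEM may have shared reads between them.

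The troponins gave the same picture. Tnni2, the fast inhibitory subunit, ran from 0.641 to 831 CPM, Tnnt3, the fast tropomyosin-binding subunit, from 1.45 to 2433 CPM, and Tnnc2, the fast calcium-binding subunit, from 1.2 to 1565 CPM. Their slow partners stayed low in every mouse, at most 0.399 CPM for Tnni1, 0.694 CPM for Tnnt1 and 0.554 CPM for Tnnc1, with Myh7 at most 1.85 CPM. In the 17 mice with more muscle RNA the slow troponin was at most 0.295% of its pair per kb. In the other 7 the highest values were 16.9% (Tnni1), 23.8% (Tnnt1) and 14.7% (Tnnc1), all in female WT replicate 6. There these slow troponins had only 3, 9 and 5 counts. The slopes of the 4 slow genes Tnni1, Tnnt1, Tnnc1 and Myh7 on the log2 level of the other members, centred within groups, lay between -0.06 and -0.01. They were the members that did not pass the filter on low counts. Mybpc1, the slow form of myosin-binding protein C, which fast fibers also make, went the other way. It rose to 71.7 CPM in male WT replicate 1 with a slope of 0.69 ± 0.09 on the log2 muscle share, and was 1.19% to 9.34% of the sum of Mybpc1 and the fast form Mybpc2 per kb in the 17 mice and 7.03% to 47.0% in the other 7.

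Myosin and myoglobin differed between mice of similar muscle share. Myh1 was at 214 CPM in male WT replicate 1, 142.0 CPM in male Gdf15-KO replicate 15 and 38.1 CPM in female Gdf15-KO replicate 13, against a median of 7.56 CPM over all mice. Mb, the oxygen store of oxidative fibers, was at 46.6 CPM and 35.1 CPM in the first 2 of these mice, against a median of 2.12 CPM. Myh2 was highest in male Gdf15-KO replicate 15, at 33.1 CPM against a median of 1.11 CPM. Male Gdf15-KO replicates 15 and 16 had shares of 1.70% and 2.26%, while Myh1 was 3.77% and 0.267% of the adult heavy chains and Mb was 2.65% and 0.220% of Acta1 per kb. Male Gdf15-KO replicate 15 thus combined a high muscle share with the highest Myh1, Myh2 and Mb proportions of the 17 mice.

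In the 7 mice with little muscle RNA the Myh4 percentage had a lower median, 92.9% against 99.4% in the other 17, with ranges that overlapped. It was 59.6% in female WT replicate 6, 80.0% in female Gdf15-KO replicate 14, 90.7% and 95.4% in male Gdf15-KO replicates 13 and 14, 92.9% and 99% in male WT replicates 4 and 5 and 97.6% in female Gdf15-KO replicate 18. Counts were few in female WT replicate 6, with Myh4 at 76 of 127 heavy chain counts (59.8%, Wilson 95% interval 51.2% to 68.0%, before division by length). Female Gdf15-KO replicate 14 had 3244 of 4050 (80.1%, 78.8% to 81.3%), a low percentage over many more counts. Its Myh1 was 22.3 CPM and its Myh2 13.1 CPM, above those of most mice with more muscle RNA. Trim63 (MuRF1), a ubiquitin ligase of the sarcomere that rises in wasting muscle, also stood apart from the share: it was 20.0 CPM in female Gdf15-KO replicate 18 and 6.68 CPM in male Gdf15-KO replicate 14, against 0.399 CPM in female Gdf15-KO replicate 14.

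**Figure D3:**
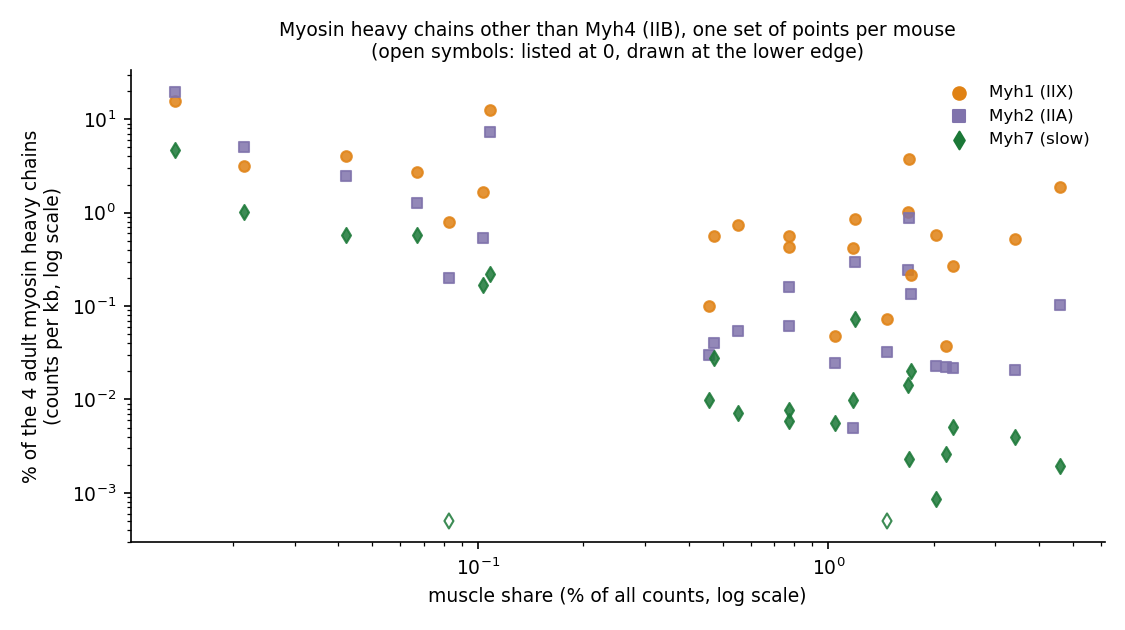
Percentage of Myh1, Myh2 and Myh7 among the 4 adult myosin heavy chains (counts per kb, log axis) against the muscle share (log axis), with 3 points per mouse and open symbols for Myh7 listed at 0. In the 17 mice at or above 0.4% muscle share all 3 together stay below 5%, and the highest values lie in mice with little muscle RNA, such as 15.9% Myh1 and 19.8% Myh2 in female WT replicate 6.

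The first comparison asked whether the muscle genes differed between Gdf15-KO and WT mice. None of the 34 tested members was called in females (edgeR quasi-likelihood test, adjusted p under 0.05), where 29 of 14982 genes were called (0.194%), and none in males, where 30 were called (0.2%). None had an unadjusted p under 0.05 in either sex, compared with 1633 genes in females and 820 in males, and DESeq2 also called none. The log2 difference, Gdf15-KO minus WT, was below 0 for 29 of 34 members in females (median -0.44, all genes -0.0050) and for 33 of 34 in males (median -1.03, all genes 0.0012). For Acta1 it was -0.41 ± 1.11 (SE) in females (adjusted p = 0.924, edgeR) and -0.998 ± 1.12 in males (adjusted p = 0.961, edgeR).

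These differences were within the spread between mice. The median SE of a member was 1.09 on the log2 scale in each sex, against 0.111 in females and 0.112 in males over all genes. The members had a median within-group SD of 2.78 on the log2 scale against 0.195 over all genes, 31 of 34 were among the 1% of genes with the largest SD, and 23 of the 50 most variable genes were members. The difference of the genotype effect between the sexes was also called for none of the 34 members in edgeR, nor for any other gene (0%), with 0 members and 522 genes at an unadjusted p under 0.05 and no member called by DESeq2. As the genes share one source of variation, the members' differences are not independent of each other.

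Between the sexes, Myh1, Actn2 and Mb were called, all lower in females, among 34 members, while 44.2% of all genes were called. Myh1 was lower by a log2 value of -2.15 ± 0.87 (SE, adjusted p = 0.0477, edgeR), with a median of 16.8 CPM in WT and 7.89 CPM in Gdf15-KO males against 1.96 CPM in WT and 9.19 CPM in Gdf15-KO females. Mb had a log2 difference of -1.84 ± 0.72 (adjusted p = 0.0412, edgeR). Actn2, an α-actinin of the Z-disc with a median of 1.55 CPM over all mice, had one of -1.54 ± 0.59 (adjusted p = 0.0388, edgeR). The female median was the lower for all 3 genes in WT mice but the higher for all 3 in Gdf15-KO mice. For Mb it was 2.585 CPM in Gdf15-KO females against 1.907 CPM in Gdf15-KO males, and for Actn2 1.945 against 1.552 CPM. The ranges of all 4 groups overlapped for each of the 3 genes, and 3 of 34 is far below the share of all genes called. The calls rested on few mice: the count was 0 of 34 without male WT replicate 1 or without male Gdf15-KO replicate 15, and 0 with the mouse of highest muscle share in each group left out. It was also 0 in 6 other omissions of 1 mouse, 1 in 4 (female WT replicates 3 and 5, female Gdf15-KO replicate 16 and male WT replicate 2), 2 in 2 and 3 in 10 of the 24 omissions.

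A fit with the log2 muscle share as a covariate, added after the data were seen, compared the sexes at equal muscle share. It called 15 of 34 members, close to the 46.3% of all genes called. Since the share is the sum of the members, some must lie above and others below 0. The calls are therefore listed as a description and are no result about the members as a group. Higher in females were 5 genes: Cacna1s, the voltage sensor of excitation (log2 0.53 ± 0.08, adjusted p = 8.3e-06, edgeR), Ryr1, the calcium release channel (0.26 ± 0.06), the giant scaffold proteins Ttn (0.27) and Neb (0.15) and the fast α-actinin Actn3 (0.34). Lower in females were 10, among them the 3 fast troponins Tnni2 (-0.41 ± 0.09, adjusted p = 0.00076, edgeR), Tnnt3 (-0.35) and Tnnc2 (-0.31), and the light chain Myl1 (-0.55). The others were Des, Pygm (glycogen phosphorylase), Myoz1, Trim54, Pvalb and Myf6. Of these 15 calls, 9 stood in all 29 alternatives run (Ryr1, Tnni2, Myl1, Tnnt3, Ttn, Cacna1s, Tnnc2, Pygm and Des). At equal share Myh1, Actn2 and Mb were no longer called (adjusted p = 0.219, 0.0518 and 0.167, edgeR).

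Other muscle genes rose with the share. Outside the members, 744 of 14948 genes (4.98%) rose and 87 (0.582%) fell with the log2 muscle share in the edgeR model with group means, at an adjusted p under 0.05. Of the other contractile genes 26 of 28 rose (median slope 0.82), led in level by the tropomyosins Tpm1 (0.53 ± 0.04) and Tpm2 (0.66 ± 0.04), while Tpm3, the tropomyosin of slow and non-muscle cells, had a slope of -0.02 ± 0.01. Of other genes of excitation and calcium release 16 of 19 rose, among them Srl and Jph2, and Atp2a2, the pump of slow muscle and most other cells, had a slope of 0.01 ± 0.01. Of the regulators and satellite cell genes 6 of 8 rose, such as Mstn (0.79 ± 0.09), and of the junction genes 5 of 7, such as Musk (0.47 ± 0.05).

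The genes most like the muscle share were Ampd1, Trdn, Cacng1, Hrc, Klhl31, Rpl3l, Ppp1r3a, Mypn, Myom2 and Jsrp1. Their log2 level, centred within groups, correlated with the share at r between 0.995 and 0.998 over 24 mice. In all, 155 genes outside the members had r above 0.9 among 13936 genes with a mean of at least 1 CPM. Ampd1, the AMP deaminase of muscle, went from 0.470 CPM in female WT replicate 6 to 117 CPM in male WT replicate 1.

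Markers of other cells were compared in the same model. None of 8 smooth muscle, 10 adipocyte, 6 endothelial, 5 blood, 7 mammary and 5 skin genes was called, and the summed adipocyte markers ran from 11640 to 18020 CPM in WT and 13500 to 17100 CPM in Gdf15-KO females, and from 16050 to 22180 CPM in WT and 17520 to 25570 CPM in Gdf15-KO males. The genotypes overlapped within each sex, while Gdf15-KO females lay below Gdf15-KO males without overlap. Of 4 tested heart genes Actc1 rose, the cardiac actin that is close in sequence to Acta1, while Myh6 and Myl7, which define heart muscle, were at 0 in 22 and 21 mice and the other heart genes were not called. Of 6 tendon genes Thbs4 (0.17 ± 0.03, adjusted p = 0.0022, edgeR) and Scx (0.15 ± 0.04, adjusted p = 0.0367, edgeR) rose with the share. Of 6 macrophage genes Mrc1 rose, by 0.10 ± 0.02 per doubling. The part of these cells in the slopes was not tested.

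The study asked how loss of GDF15 alters metabolic genes of sWAT, so the metabolic genes were set against the muscle share. Of 179 tested metabolic genes in 8 lists, 27 rose with the share and none fell, against 4.98% and 0.582% of all genes outside the members. Of these 27, 21 came from a list of isoforms and enzymes picked because muscle uses them strongly. Their rise was largely built into that choice, so 27 of 179 is no result about metabolic genes in general. Of the isoforms and enzymes of energy metabolism that muscle uses strongly 21 of 25 rose (median slope 0.27), of glycolysis and glycogen 4 of 25 (0.01), of the TCA cycle 1 of 23 (0.02) and of lipid uptake 1 of 14 (0.0046). None rose or fell of 20 genes of de novo lipogenesis (median slope 0.0031), 16 of triglyceride synthesis and lipid droplets (0.0095), 26 of fatty acid oxidation (0.02) and 30 of oxidative phosphorylation (0.02). Counts of 0 or 1 in lists of 14 to 30 genes are near the share of all genes called and are no result about those lists. The median over all genes was 0.0017 per doubling.

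The metabolic genes with the smallest p were specific to muscle. Ampd1 rose by 1.02 ± 0.02 per doubling of the share (SE, adjusted p = 6.0e-23, edgeR), Pgam2, the muscle phosphoglycerate mutase, by 1.11 ± 0.03 (adjusted p = 2.0e-19, edgeR), Art1, an ADP-ribosyltransferase of muscle, by 0.96 ± 0.03 and Cox6a2, the striated muscle subunit of cytochrome oxidase, by 0.85 ± 0.03. Pgam2 ran from 0.299 CPM in female WT replicate 6 to 215 CPM in male WT replicate 1. In glycolysis and glycogen, Ppp1r3a, the glycogen-targeting subunit of muscle phosphatase, rose by 0.96 ± 0.02, the lactate exporter Slc16a3 by 0.40 ± 0.04 and Pgm1 by 0.10 ± 0.02. Got1 of the malate-aspartate shuttle rose by 0.09 ± 0.02 and Vldlr, a lipoprotein receptor, by 0.11 ± 0.02.

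Enzymes that fat and muscle both use rose less. Pfkm, muscle phosphofructokinase, rose by 0.52 ± 0.03 and Aldoa, aldolase A, by 0.16 ± 0.03 per doubling (both chosen after their values were seen). Pfkm stayed between 37.4 and 57.7 CPM in the 7 mice with little muscle RNA and reached 814 CPM in male WT replicate 1. Aldoa lay between 1007 and 1857 CPM in those 7 mice and at 4417 CPM in male WT replicate 1. Per added percentage point of muscle share Aldoa was higher by a log2 value of 0.39 ± 0.06 and Gapdh, also chosen after its values were seen, by 0.29 ± 0.05. Gapdh, often used as a reference gene, ran from 944 to 3211 CPM over the mice. In females alone neither was called (adjusted p = 0.568 and 0.447, edgeR), with slopes on the log2 share of 0.12 for each, against 0.16 for Aldoa and 0.12 for Gapdh in all mice.

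No gene of fat synthesis was called. In de novo lipogenesis the slopes ran from -0.03 to 0.02, with Scd1, the desaturase, at -0.03 ± 0.03 (adjusted p = 0.606, edgeR) and Elovl5 at -0.01 ± 0.01 (adjusted p = 0.575, edgeR). In fatty acid oxidation they ran from 0.0067 to 0.09, with Crat at 0.04 ± 0.02 (adjusted p = 0.2, edgeR) and Pdk4, the brake on pyruvate oxidation, at 0.09 ± 0.04 (adjusted p = 0.208, edgeR). In oxidative phosphorylation all 30 slopes were above 0, from 0.0013 to 0.03, with Ndufs1 of complex I at the top (0.03 ± 0.02). Fasn and Cpt2, chosen to draw beside the muscle enzymes, had slopes of 0.0034 ± 0.05 and 0.0081 ± 0.02.

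**Figure D4:**
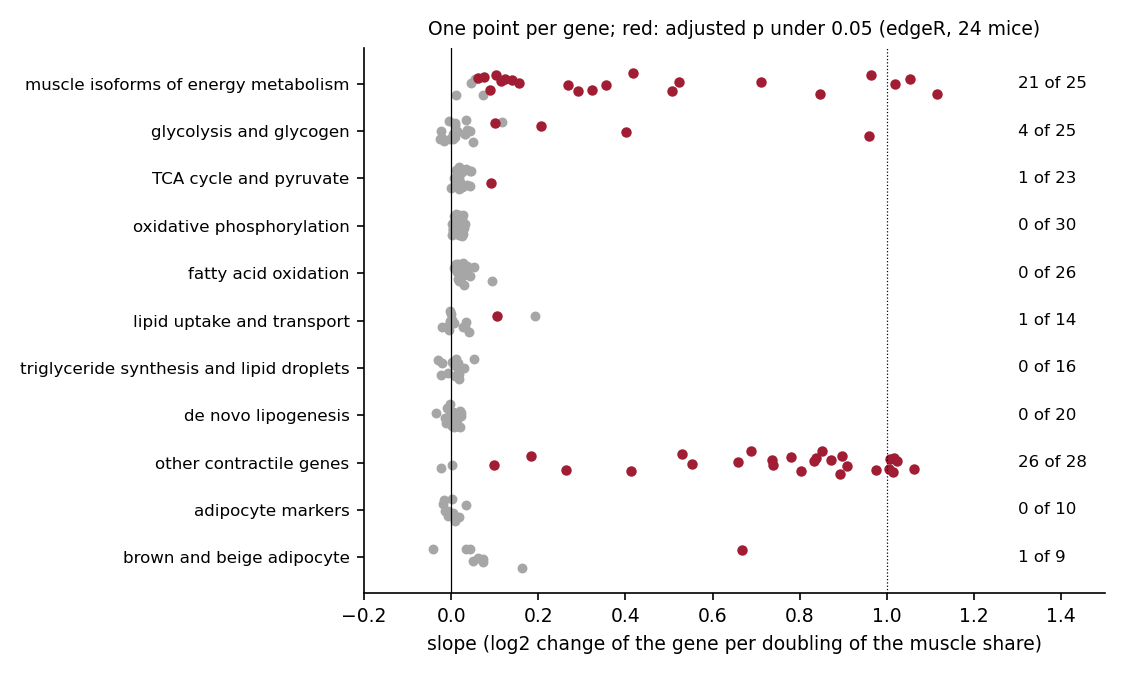
Slope of each gene on the log2 muscle share in a model with a mean for each group, 1 point per gene, for 8 metabolic and 3 other lists, with genes at an adjusted p under 0.05 in red and their count at the right. The muscle isoforms reach as far as the contractile genes, up to 1.11 per doubling, while lipogenesis and oxidative phosphorylation stay within 0.04 of 0.

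**Figure D5:**
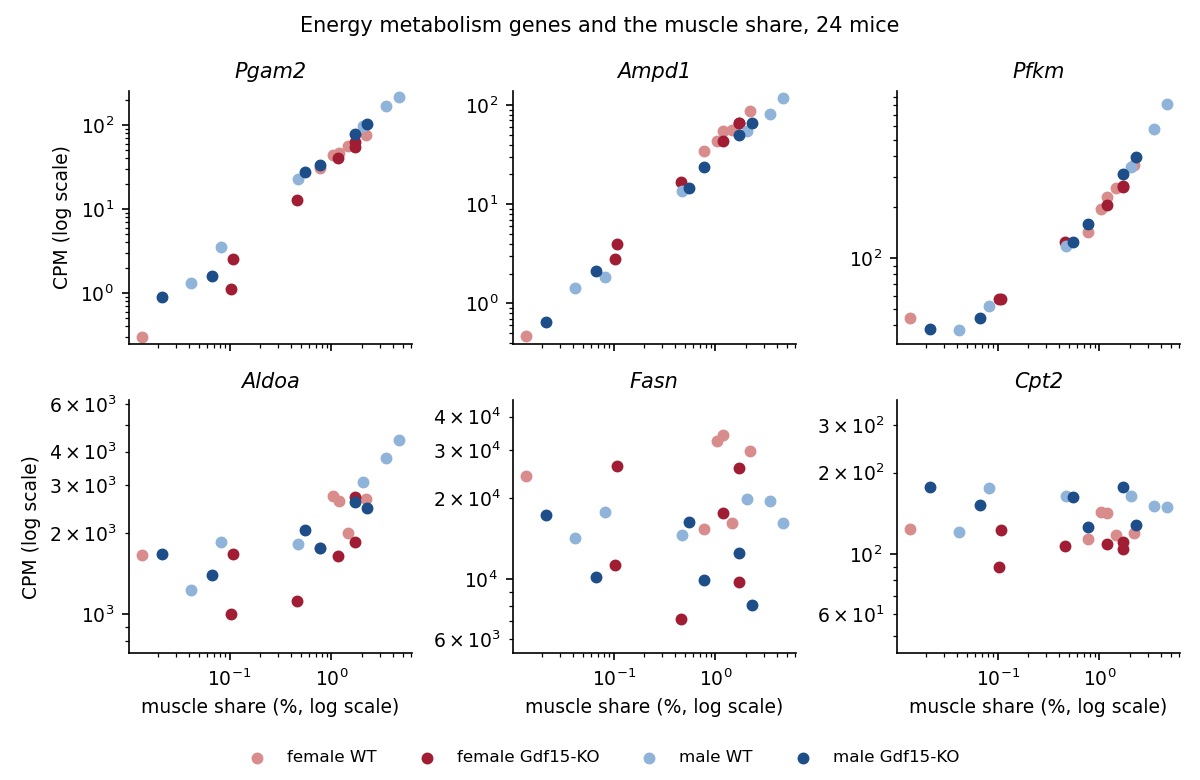
CPM of 6 metabolic genes against the muscle share in 24 mice, both on log axes, coloured by group. Pgam2 and Ampd1 rise with the share throughout, Pfkm and Aldoa rise where the share is high, and Fasn and Cpt2 show no trend.

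The number of genes called between the genotypes in edgeR changed little with the muscle share in the model. In females 31 genes were called with the share (0.207%) against 29 without it, 28 of them shared. Arrdc2, Atp6v1g1 and Mvb12a were gained and Babam1 was lost. In males 29 were called (0.194%) against 30, with Ccdc124 lost. With the share, DESeq2 called 79 genes in females and 48 in males, and a fit of females alone in edgeR called 17. Of the 179 metabolic genes none was called in females with or without the share in edgeR, and 1 in males in both fits. For DESeq2, neither the total called without the share nor the metabolic calls are given here. The paper, which used DESeq2, reported lipid metabolism pathways as most affected in both sexes. The number of genes at an unadjusted p under 0.05 went from 1633 to 1705 in females and from 820 to 786 in males.

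Differences moved for muscle enzymes and hardly for genes of de novo lipogenesis. The median log2 difference of the muscle isoforms of energy metabolism went from -0.42 to -0.30 in females and from -0.56 to -0.21 in males when the share entered the model. For Pgam2 it went from -1.15 ± 1.09 to -0.09 ± 0.15 in males and from -0.63 ± 1.09 to -0.41 ± 0.14 in females. For de novo lipogenesis the median was -0.66 in both fits in females and went from -0.38 to -0.37 in males, and no gene of that list moved by more than 0.0082 in females or 0.04 in males. For fatty acid oxidation it went from -0.28 to -0.27 in females and from -0.18 to -0.16 in males, and for oxidative phosphorylation from -0.31 to -0.30 and from -0.17 to -0.14. No gene of the muscle isoforms, lipogenesis, fatty acid oxidation or oxidative phosphorylation was called in either fit (edgeR). Single genes moved more in males, by up to 0.11 in fatty acid oxidation (Pdk4) and 0.11 in lipid uptake. Among brown and beige adipocyte genes the largest shift in males was 0.33 (Ucp1). At an unadjusted p under 0.05, lipogenesis had 17 of 20 genes in females in both fits and went from 4 to 3 in males. In males fatty acid oxidation went from 6 to 4 of 26 and the TCA cycle from 5 to 2 of 23, and in females the muscle isoforms went from 4 to 10 of 25. Of all 14982 genes, 1633 without and 1705 with the share reached this level in females, and 820 and 786 in males. The male changes, of a few genes per list, are no result about those lists.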

How the data were processed

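RNA-Seq of sWAT from 24 mice was used, 6 in each of 4 groups set by sex and genotype in the sample titles. Per the labels and the paper's methods, the authors trimmed adapters from paired reads and used Bowtie2 2.2.5 for alignment (build GRCm39), then estimated counts per gene in RSEM 1.2.8. The deposited table holds these expected counts, not normalized, and each column belonged to 1 sample. Nothing says that reads were assigned by strand. RSEM shares reads between similar genes, so levels of Myh1, Myh2 and Myh4, of Acta1 and Actc1 and of Eef1a2 and Eef1a1 are uncertain where their sequences match.

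CPM is the expected count scaled to a mouse's total. The muscle share and the fiber type shares are descriptions without a test, since the members and all gene lists were chosen with earlier results of these data known. Coding lengths and gene positions came from GENCODE M39 on GRCm39. Counts were rounded, and 14982 genes passed filterByExpr with the groups given (at least 10 counts, total 15). Under R 4.3.3, edgeR 4.0.16 then took TMM factors and 1 mean per group, and p-values were adjusted by Benjamini-Hochberg over all genes. A second fit added the log2 muscle share, which gave the slopes. Named metabolic genes were up to 4 per list with the smallest p for the slope and a mean of at least 1 CPM; all members could be named, and up to 4 genes of each other muscle list with the highest mean. One gene that this rule names is not reported here.

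Alternatives were DESeq2 size factors and library size alone in edgeR, no filter, DESeq2 1.42.0, each sex alone, other forms of the share, leaving out each mouse or the mouse of highest share in each group, and the replicate number as a block. The procedure was tested on simulated data. No 2 libraries were duplicates. Shares of counts carry Wilson 95% intervals. The study's own fold changes, qPCR and protein data were not used here.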

Additional observations from a re-analysis of the deposited data

Results flagged for a closer look

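Of 88 tests of a mouse against the other 5 of its group (22 measures in 4 groups of 6), 23 set 1 mouse apart by Dixon's criterion. Its rate of about 1 in 20 by chance holds for normally distributed values. These levels and percentages were not log-transformed and spread widely within groups, so the 23 cannot be set against that rate. Many concern the same few mice and are not independent. The causes were not tested.

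Among mice with little muscle RNA, the Myh4 percentage of the adult heavy chains was low in female WT replicate 6 (59.6%), female Gdf15-KO replicate 14 (80.0%) and male WT replicate 4 (92.9%). The Myh1 percentage was high in female WT replicate 6 (15.9%) and female Gdf15-KO replicate 14 (12.5%). The Myh2 percentage was high in female WT replicate 6 (19.8%), female Gdf15-KO replicate 14 (7.31%), male WT replicate 4 (2.49%) and male Gdf15-KO replicate 13 (5.09%). The ratio of Mb to Acta1 per kb was 39.1% in female WT replicate 6. Tnni1 was 0.222 CPM in female Gdf15-KO replicate 14 and Myh7 0.642 CPM in male Gdf15-KO replicate 14, both few counts.

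Among mice with much muscle RNA, Myh1 stood apart in female WT replicate 1 (21.7 CPM), male WT replicate 1 (214 CPM) and male Gdf15-KO replicate 15 (142.0 CPM). Myh2 did so in the same mice, at 7.69, 11.7 and 33.1 CPM, and so did Mb, at 4.93, 46.6 and 35.1 CPM. The ratio of Mb to Acta1 per kb was 1.44% in male WT replicate 1, and Myh7 was 1.85 CPM in female WT replicate 1.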

How the results depend on the processing

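Of 67 comparisons of a main value with an alternative, 58 stayed within the stated bounds (1.5-fold for counts, 1 SD for shares). The count of members called between the sexes, 3, was 1 with library size alone, 0 without the mouse of highest share in each group, 15 with the share as a covariate and 11 with both. The count of metabolic genes rising with the share, 27, was 15 in females alone. The genotype calls with the share, 31 in females and 29 in males, were 79 and 48 with DESeq2, and 17 in a fit of females alone. The cause was not tested. With 1 mouse left out, the ranges were 0 to 3 members between the sexes, 24 to 28 metabolic genes, and 24 to 36 and 25 to 32 genotype calls in females and males. The median Gdf15-KO minus WT difference of the members then ran from -0.74 to -0.11 in females and from -1.51 to -0.45 in males, and no sign turned. Of 1667 alternative values of 53 gene results none turned its sign and 147 lost a call. Pkm was lost in 16 of 24 omissions of 1 mouse.

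The labels give both sexes the same replicate numbers, and nothing says what a number marks. Of 12 same-numbered pairs 9 correlated above 0.1, from -0.63 to 0.44, and 3 matched their own number best, and same-numbered mice were therefore treated as unrelated. With the number as a replicate block 0 members were called between the sexes and 6684 genes in place of 6625.

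Shares in mice with few muscle counts are limited by depth, and the slopes assume a straight line on the log2 scale.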

Other observations

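Ucp1, the uncoupling protein of brown and beige adipocytes, was the 1 of 9 tested genes of that list that rose with the muscle share, by 0.67 ± 0.14 per doubling (SE, adjusted p = 0.0029, edgeR). It was highest in male WT replicates 3 and 1, at 38.7 and 23.9 CPM, and at 0 in female Gdf15-KO replicate 17, against a median of 2.54 CPM. The adjusted p was 0.052 without the mouse of highest share in each group and 0.303 in females alone, while the slope stayed between 0.57 and 0.74 over 33 alternatives. Dio2 (0.16 ± 0.10) and Cox8b (0.07 ± 0.04) were not called.

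Embryonic and neonatal myosin, Myh3 and Myh8, which mark developing or regenerating fibers, were low, with medians of 0.0430 and 0.128 CPM. They were highest at 2.39 and 4.88 CPM, in the same mouse, male WT replicate 1. The genes whose level fell most closely with the share were Mis12 (r = -0.77), Slc66a1 (-0.76), Irf1 (-0.74), Bcl2a1d (-0.73) and M6pr (-0.72) over 24 mice, given as a description.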
